A study of Mus musculus with 5 samples.

Results

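Translation initiation factors are the proteins that bring the small ribosomal subunit, the initiator methionyl-tRNA and an mRNA together and find the start codon. Their mRNA levels were described here in 2 TAZ-KO and 3 WT single-cell clones of 4T1, a mouse mammary carcinoma cell line. The members were all rows of the count table whose symbol begins with Eif1 to Eif6, without the Eif2ak kinases and without pseudogenes, which gave 46 of the 13143 genes listed. All 46 passed the filter on low counts and were tested among 11975 genes. Eif2s3y, Eif3j1, Eif3j2, Eif4e1b and Eif4e3 belong to the same family and were not analysed here.

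TAZ is a transcriptional co-activator encoded by Wwtr1. For the TAZ-KO clones, 1 clone of Cas9-expressing 4T1 cells received a Wwtr1 guide RNA by lentivirus and was selected with puromycin. Both TAZ-KO clones carried the same guide. The WT clones also expressed Cas9 but had received no guide virus, so the guide vector and the puromycin step differed between the groups together with the genotype and cannot be told apart from it. Whether the WT clones came from the same founder clone is not given in the study's methods. All 5 clones were grown untreated in RPMI medium. Each clone gave 1 library, so the spread within a group is the spread between clones. Library totals lay between 14695384 and 16452147 counts, at which 3 counts equal 0.184 to 0.203 CPM (counts per 1e+06, scaled by TMM-adjusted library size). Wwtr1 itself had 129 and 152 CPM in TAZ-KO clones 1 and 2, against 659.7, 312 and 315 CPM in WT clones 1, 2 and 3 (log2 fold change −1.61, edgeR adjusted p = 0.19, and 0.00193 without WT clone 1). A residual mRNA level says nothing of the edit itself, but the study reports edits in all Wwtr1 alleles by DNA sequencing and loss of TAZ protein. The epithelial markers Epcam, Krt7, Krt8, Krt18 and Cdh1 were all present, with summed levels of 3461 to 3538 CPM in TAZ-KO clones and 2312 to 4519 CPM in WT clones. WT clones 2 and 3 were the lowest of the 5 for Krt8 (271 and 322 CPM) and Krt18 (787 and 813 CPM). They were the highest for Cdh1 (658 and 490 CPM), and Epcam and Krt7 did not split this way. Of the leukocyte, endothelial and fibroblast markers, 5 of 10 had a row. Their summed levels were 9.72 to 10.0 CPM in TAZ-KO and 12.3 to 30.3 CPM in WT clones for leukocytes, nearly all of it Cd68, 0.463 to 0.667 and 0.308 to 1.49 CPM for endothelium, and 0.400 to 1.26 and 1.83 to 6.75 CPM for fibroblasts, and their part in the results was not tested.

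The WT clones were not alike. The chi-square per gene between 2 libraries was 17.9 for WT clones 2 and 3 and 37.5 for the TAZ-KO clones. It was 67.5 and 68.6 between WT clone 1 and the TAZ-KO clones, but 185 and 187 between WT clone 1 and the other WT clones. WT clone 1 thus lay nearer to the TAZ-KO clones than to its own group, and calls that change without it are also given without it. Leaving it out removes the WT clone most like the TAZ-KO clones, and edgeR then called 4598 of all genes. Leaving out WT clone 2 or WT clone 3 instead gave 0 genes called. Values without WT clone 1 therefore describe the contrast with WT clones 2 and 3 only.

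Initiation runs through a chain of complexes. eIF2 carries the initiator tRNA as a GTP-bound complex and is recharged by its exchange factor eIF2B, while eIF1, eIF1A, eIF5 and eIF5B govern start codon recognition and subunit joining. eIF3 is the large scaffold on the small ribosomal subunit. eIF4E binds the mRNA cap and, with the scaffold eIF4G and the RNA helicase eIF4A, forms eIF4F, which the 4E-BPs block and eIF4B and eIF4H assist. Phosphorylated eIF2 inhibits eIF2B in the integrated stress response, in which ATF4 is made, and mTORC1 controls the 4E-BPs and the translation of mRNAs that start with a run of pyrimidines, the TOP mRNAs, many of which encode translation factors.

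The sequences around the start codon and the transcript start were read for 2 features known to bear on translation of mRNAs in general. Translation was not measured here. The windows below are the annotated start codons in GENCODE M21 (GRCm38), with 10 bases before and 17 after the ATG, and capitals mark the base at −3, the ATG and the base at +4. They are shown because start codon selection factors are known to read the base at −3 (a purine in the favourable context) and the G at +4, and because the mRNA of eIF1 is known to start in an unfavourable context.
Eif1 (chr11, plus strand): atcgtatCgtATGTccgctatccagaacct
Eif1b (chr9, plus strand): ctagtgtCgcATGTccactatccagaacct
Eif5 (chr12, plus strand): ataagccAaaATGTctgtcaacgtcaaccg
Eif4b (chr15, plus strand): ctctcccAacATGGcggcctcagcaaaaaa
Of the 45 members with an annotated start codon, 40 had a purine at −3 (88.9%), against 86.6% of 11608 genes of the table. Neither the purine nor the G at +4 was present in 3 members, Eif1, Eif1b and Eif3b (6.67%, against 6.19% of the table).

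The second set of windows is from RefSeq (GRCm38.p6) and covers 10 bases before and 20 from the annotated transcript start, where capitals mark a run of at least 5 pyrimidines that begins with C. The run was searched on the transcript strand only, at the start itself and within 5 bases of it. A run present at the start was marked from the start on, and otherwise only the longest run was marked. The windows are shown because such a run at the very start is the defining feature of a TOP mRNA.
Eif3f (chr7:108934405-108934434, plus strand): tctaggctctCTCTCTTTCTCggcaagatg
Eif2s3x (chrX:94212632-94212661, minus strand): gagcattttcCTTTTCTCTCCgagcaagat
Eif3l (chr15:79075213-79075242, plus strand): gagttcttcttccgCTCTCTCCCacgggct
Eif3m (chr2:105017008-105017037, minus strand): cggtcggcgtgtttctggatcggagcgtct
A run exactly at the annotated start was found in Eif3f and Eif2s3x, 2 of the 37 members with a RefSeq window (5.41%, against 3.01% of 27025 genes). In both genes pyrimidines also precede the annotated start, and in Eif3f the run counted from 4 bases before it was 15 long. Eif3l had a run of 9 that begins 4 bases downstream, and another pyrimidine stretch, not marked, spans its annotated start. Eif3m had none in this window. Counting runs that begin at the start or within 5 bases of it, 8 of 37 members had one (21.6%, against 18% of all RefSeq genes and 21.3% of the genes of the table). Annotated starts can differ from the start used in these cells, and the match is a description of the letters only.

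Between TAZ-KO and WT clones, most initiation factor mRNAs had a negative fold change, but no single factor passed the test in edgeR. Counts of a bulk library do not separate fewer cells expressing a gene from less mRNA per cell. Members of the family took 1.20% and 1.26% of all counts in TAZ-KO clones 1 and 2, against 1.24%, 1.62% and 1.67% in WT clones 1, 2 and 3. WT clone 1 fell between the TAZ-KO clones, so that the groups overlapped. The fold change was negative for 38 of the 46 members (82.6%, against 52% of all genes tested), and its median was −0.35 on the log2 scale, against −0.028 over all genes tested. With 1 surrogate variable in the model, which separated WT clones 2 and 3 from the other clones, the median of the members was −0.076, and the fold changes of Eif5, Eif2b3, Eif5a and Eif5a2, among others, changed sign. In edgeR, 0 of the 46 members had an adjusted p under 0.05, where 0.0501% of all genes did (0.00835% higher and 0.0418% lower). At an unadjusted p under 0.05 there were 4 lower members (8.70%, against 9.41% of all genes) and 0 higher members (7.94% of all genes), DESeq2 called 1 member lower, Eif3l, where it called 5.53% of its genes (2.25% higher and 3.29% lower), and limma-voom called 0. Without WT clone 1, edgeR called 20 members lower and 0 higher, where 38.7% of all genes were called (19.1% higher and 19.7% lower).

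**Figure D1:**
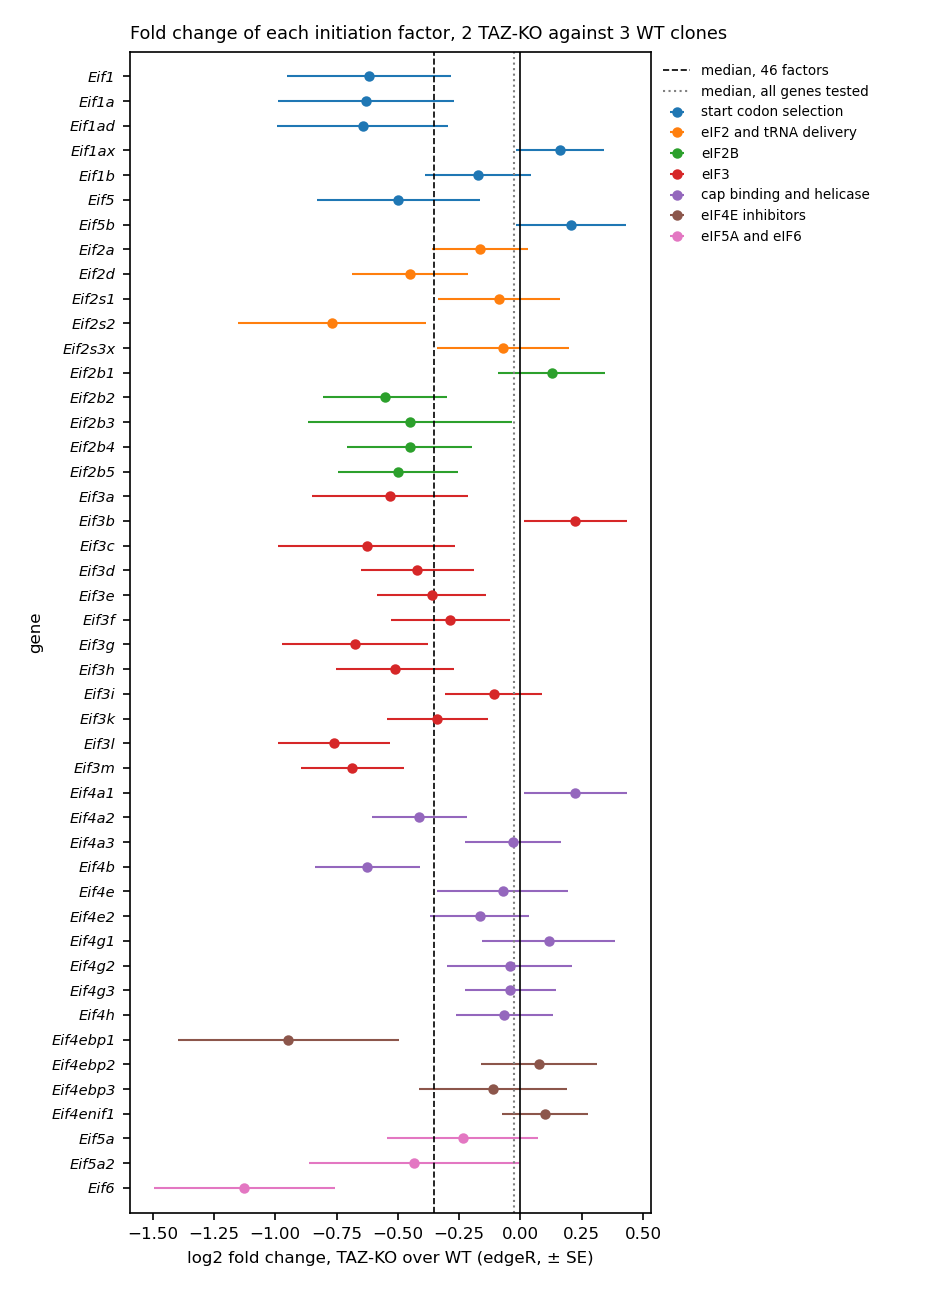
Log2 fold change of each initiation factor, TAZ-KO over WT, from edgeR (x axis, log2 units; points are fitted values, bars ± 1 SE) for the 46 genes (rows) coloured by role. Fold changes are negative for 38 of the 46, with a median of −0.35 (dashed line) against −0.028 for all genes tested (dotted line).

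For 14 members no TAZ-KO clone reached the lowest WT clone (30.4%, against 18.6% of all genes tested). For 3 members, Eif3b, Eif1ax and Eif4enif1, no TAZ-KO clone fell as low as the highest WT clone (6.52%, against 18.7%). On total counts without TMM scaling, 12 members were below and 2 above, since Eif2b5, Eif2d, Eif4h, Eif3b and Eif4enif1 then overlapped, Eif2a was below and Eif4a1 was above. The order of the 5 clones followed a few patterns. In 25 members (54.3%, against 29.9% of all genes tested) WT clones 2 and 3 were the highest of the 5, and in 17 of these WT clone 1 lay among or below the TAZ-KO clones (37%, against 18.1%), with WT clone 1 below both of them in 10 (21.7%, against 10.3%). In 8 of the 25, both TAZ-KO clones were also below WT clone 1 (17.4%, against 11.8%). In 6 further members (13%, against 6.77%) the TAZ-KO clones were the lowest of the 5, and WT clone 1 was not the lowest WT clone. These 6 were Eif3e, Eif3h, Eif3k, Eif3l, Eif4b and Eif4h. The 12 members outside these orders and outside the 3 above made up 26.1% of the family, against 44.6% of all genes tested. WT clone 1 was the lowest WT clone in 32 members (69.6%, against 42.3% of all genes) and the highest in 7 (15.2%, against 44.3%).

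**Figure D2:**
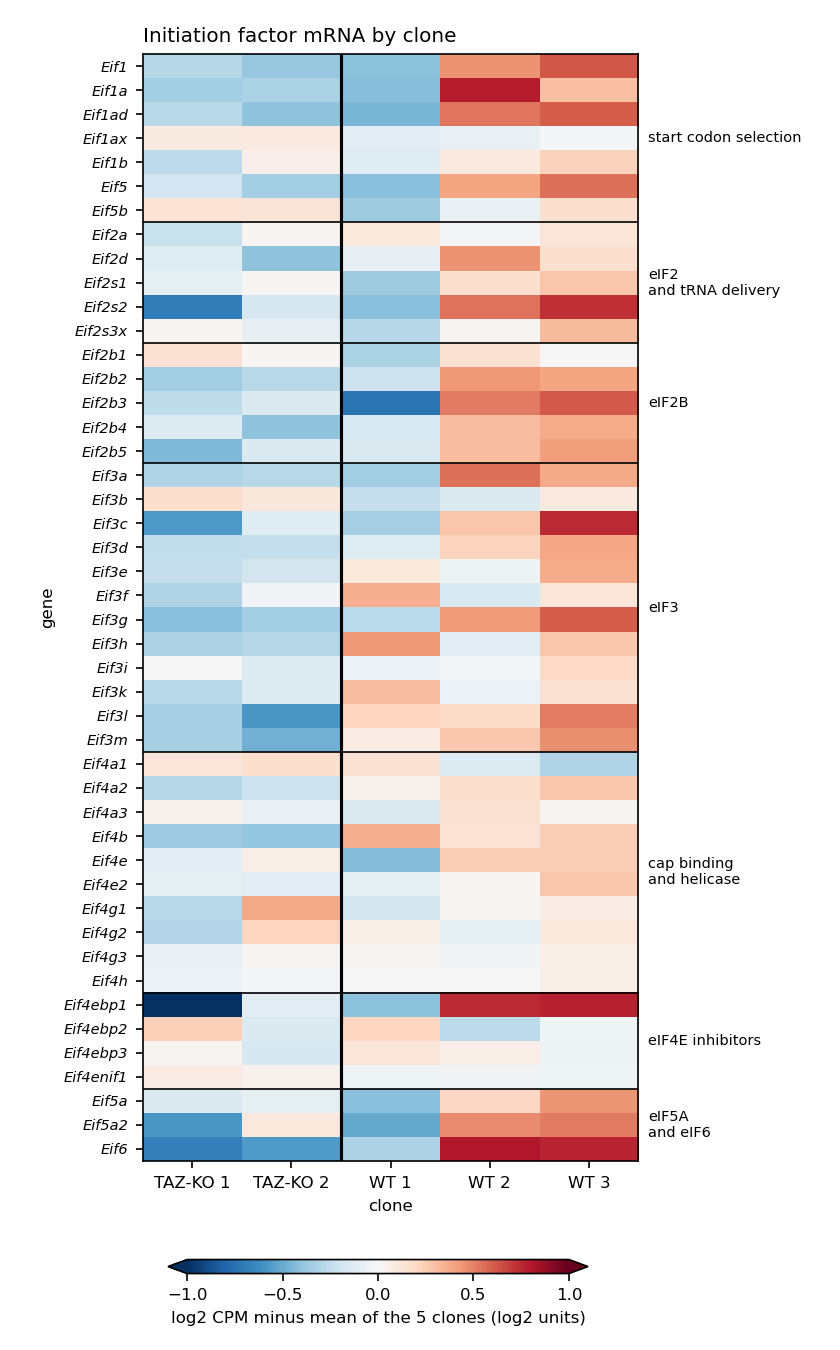
Heat map of the 46 members (rows, grouped by role) in the 5 clones (columns, TAZ-KO left of the black line and WT right of it), coloured by log2 CPM minus the mean of the 5 clones. WT clones 2 and 3 are the highest of the 5 in 25 of the 46 rows, and WT clone 1 is the lowest WT clone in 32.

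For most start codon selection factors, WT clone 1 had levels like the TAZ-KO clones and WT clones 2 and 3 were higher. The median log2 fold change of the 7 members was −0.50, and 5 of the 7 had WT clones 2 and 3 as the highest of the 5 clones (71.4%, against 29.9% of all genes tested). Eif1, which keeps the scanning ribosome from settling on a wrong codon, had 236 and 222 CPM in TAZ-KO clones 1 and 2, against 217, 393 and 443 CPM in WT clones 1, 2 and 3. WT clone 1 was the lowest clone of all, and the log2 fold change of −0.62 ± 0.34 (SE) did not pass the test (edgeR adjusted p = 0.371, and 0.00563 without WT clone 1). Eif5, the GTPase-activating partner of eIF2, had 569.8 and 515 CPM in the TAZ-KO clones, against 488, 855 and 954 CPM in the WT clones, again with WT clone 1 the lowest. Eif1a, a copy of eIF1A, had 110.3 and 112 CPM in the TAZ-KO and 104, 241 and 172 CPM in the WT clones, and its close paralogue Eif1ax had 176 and 176 against 153, 156 and 163 CPM. Eif1ax exceeded all WT clones in each TAZ-KO clone by a small margin that did not pass the test (log2 fold change 0.16 ± 0.18, edgeR adjusted p = 0.649). Both genes are near-identical in sequence, so reads may be shared between them. Eif1ad, which resembles eIF1A, had 45.3 and 41.7 CPM against 40.0, 79.8 and 84.0 CPM. It shares 15.3% of its exons with Banf1 on the opposite strand, Eif5b shares 16.9% with Rev1 and Eif1b 12.7% with an antisense gene, and reads of opposite strands cannot be told apart without knowing the strand setting. Eif1b, a paralogue of Eif1, spanned 44.2 to 54.8 CPM in TAZ-KO and 48.6 to 62.2 CPM in WT clones, and Eif5b, the GTPase of subunit joining, 244 to 246 CPM against 174 to 249.9 CPM. In all 7 members WT clone 1 was the lowest WT clone. Without WT clone 1, edgeR called 4 of the 7 lower, Eif1, Eif1a, Eif1ad and Eif5 (19.7% of all genes were called lower), with log2 fold changes of −0.87, −0.89, −0.91 and −0.73.

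Among the eIF2 subunits and the other tRNA delivery factors, Eif2s2 had the largest fold change. The median log2 fold change of the 5 members was −0.17. Eif2s2, the beta subunit, had 76.4 and 109.9 CPM in TAZ-KO clones 1 and 2, against 92.0, 179 and 205 CPM in WT clones 1, 2 and 3. TAZ-KO clone 2 lay above WT clone 1, so the groups overlapped (log2 fold change −0.77 ± 0.38, edgeR adjusted p = 0.344, and 0.00646 without WT clone 1). Eif2s1, the alpha subunit whose phosphorylation triggers the integrated stress response, had 181 and 194 CPM in TAZ-KO clones and 150.1, 215 and 233 CPM in WT clones, and both TAZ-KO clones lay within the WT range. Eif2s3x, the gamma subunit encoded on the X chromosome, spanned 18.9 to 20.2 CPM in TAZ-KO clones and 16.3 to 24.9 CPM in WT clones. Eif2a, an alternative tRNA carrier, spanned 191 to 226 CPM against 219 to 242 CPM. Eif2d, a factor known for recycling, spanned 52.4 to 63.6 CPM against 65.5 to 94.9 CPM, with no overlap between the groups (log2 fold change −0.45 ± 0.24, edgeR adjusted p = 0.36, and 0.0384 without WT clone 1).

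In the eIF2B exchange factor, which recharges eIF2, WT clones 2 and 3 were the highest of the 5 clones for 4 of the 5 subunits, all but the alpha subunit (29.9% of all genes tested had this order). The median log2 fold change of the 5 subunits was −0.45, and WT clone 1 was the lowest WT clone for all 5. Eif2b2, the beta subunit, had 62.4 and 65.3 CPM in TAZ-KO clones 1 and 2, against 68.9, 107 and 104 CPM in WT clones 1, 2 and 3. Both TAZ-KO clones were below every WT clone, with WT clone 1 just above them (log2 fold change −0.55 ± 0.25, edgeR adjusted p = 0.318, and 0.00763 without WT clone 1). Eif2b3, the gamma subunit, had 24.0 and 26.0 CPM against 17.3, 41.2 and 44.0 CPM, with WT clone 1 below both TAZ-KO clones. Eif2b4 and Eif2b5, the delta and epsilon subunits, had log2 fold changes of −0.45 and −0.50, and Eif2b1, the alpha subunit, one of 0.13. Without WT clone 1, edgeR called 4 of the 5 lower, all but Eif2b1 (19.7% of all genes were called lower), with adjusted p of 0.00763 for Eif2b2 to 0.0338 for Eif2b4.

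The eIF3 subunits held 7 of the 14 separations with TAZ-KO below WT. The TAZ-KO clones were the lowest of the 5 for 7 of the 12 subunits (58.3%, against 18.6% of all genes tested), and their median log2 fold change was −0.47. Eif3l (chr15:79075179-79094405, GENCODE M21), a peripheral subunit, had 336 and 283 CPM in TAZ-KO clones 1 and 2, against 492, 480.0 and 603 CPM in WT clones 1, 2 and 3 (309.7 ± 37.7 and 525 ± 68.0, mean ± SD, n = 2 and 3 clones). All WT clones were high, and no TAZ-KO clone reached the lowest of them. The fitted level in WT clones was 1.70-fold that in TAZ-KO clones (log2 fold change −0.76 ± 0.23, unadjusted p = 0.0142 and adjusted p = 0.223 in edgeR, adjusted p = 0.0465 in DESeq2, and edgeR adjusted p = 0.0138 without WT clone 1). Eif3m (chr2:104999656-105017080), which links subunits of the scaffold, had 72.1 and 64.9 CPM in the TAZ-KO clones, against 95.6, 109.6 and 125 CPM in the WT clones. The groups did not overlap (log2 fold change −0.69 ± 0.21, edgeR adjusted p = 0.226, and 0.00776 without WT clone 1). Eif3h, part of the same octamer, had 325 and 332 CPM against 544, 375 and 488 CPM, and here WT clone 1 was the highest WT clone (log2 fold change −0.51 ± 0.24, edgeR adjusted p = 0.322). Eif3g, an RNA-binding subunit, had 138 and 146 CPM against 153, 248 and 281 CPM, with WT clone 1 only just above TAZ-KO clone 2 (edgeR adjusted p = 0.306, and 0.00436 without WT clone 1).

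For the scaffold subunits Eif3a and Eif3c, WT clones 2 and 3 were the highest of the 5 clones. Eif3c had 411 and 561 CPM in TAZ-KO clones 1 and 2, against 487, 741 and 1025 CPM in WT clones 1, 2 and 3, and Eif3a had 883 and 899.7 CPM against 859, 1596 and 1416 CPM. In both genes WT clone 1 lay among or below the TAZ-KO clones. Eif3b, which bridges the scaffold to other subunits, was the exception among the eIF3 subunits, with 459 and 444 CPM in the TAZ-KO and 349.6, 372 and 439 CPM in the WT clones. Both TAZ-KO clones were above every WT clone by a narrow margin (log2 fold change 0.22 ± 0.21, edgeR adjusted p = 0.583), and on total counts without TMM scaling the groups overlapped. The remaining subunits Eif3d, Eif3e, Eif3f, Eif3i and Eif3k had log2 fold changes of −0.42 to −0.11. Eif3d shares 43.3% of its exons with an antisense gene, so its reads cannot be assigned to a strand here. Without WT clone 1, edgeR called 6 of the 12 subunits lower (19.7% of all genes were), namely Eif3a, Eif3c, Eif3d, Eif3g, Eif3l and Eif3m, with adjusted p of 0.00436 for Eif3g to 0.029 for Eif3d.

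**Figure D3:**
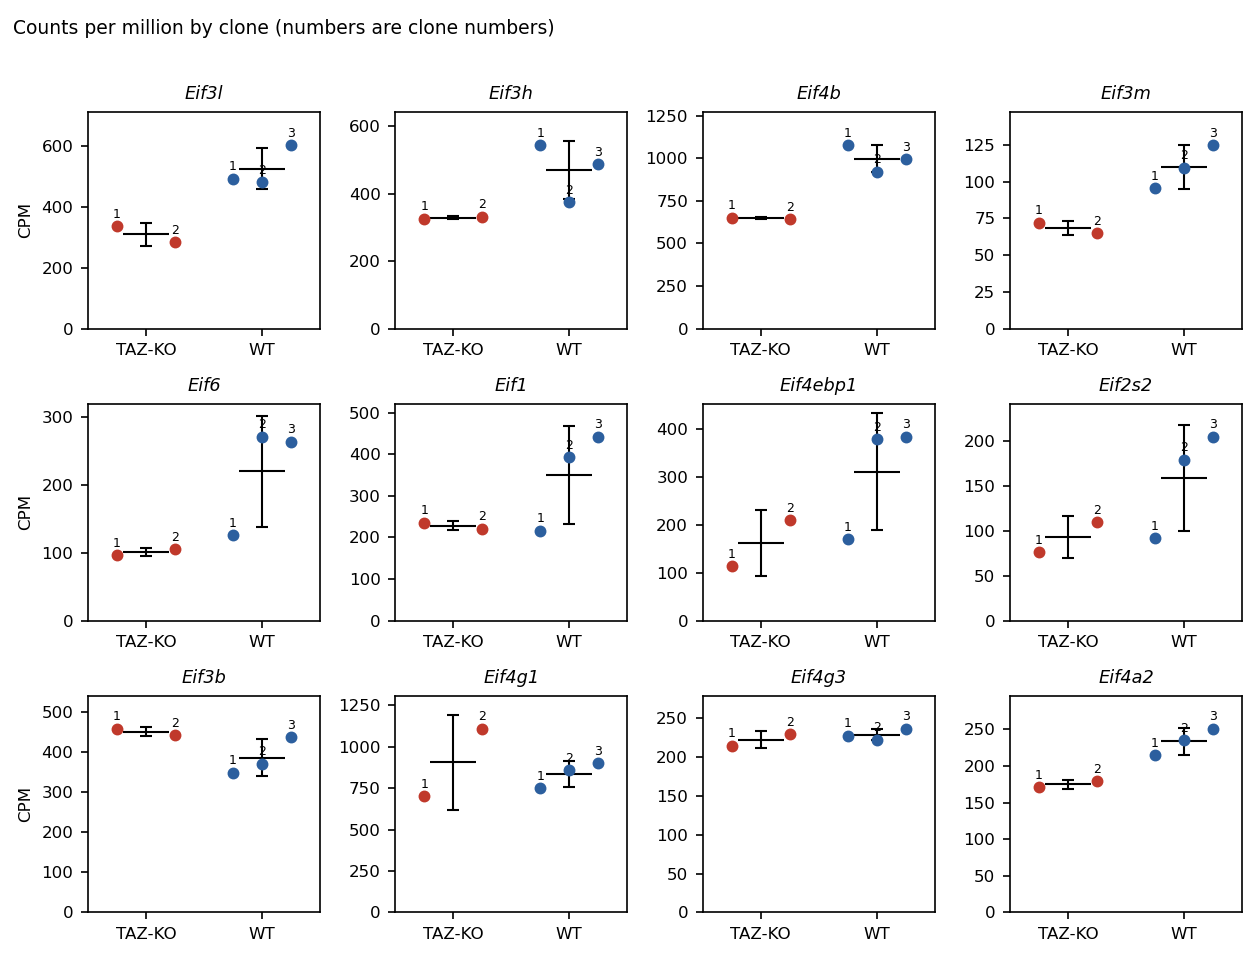
CPM of 12 members by clone (y axis, CPM from 0; TAZ-KO left, WT right; points are clones with their numbers, bars the mean ± SD of 2 and 3 clones). In Eif3l, Eif3h, Eif4b and Eif3m all 3 WT clones lie above both TAZ-KO clones, while in Eif1, Eif4ebp1 and Eif2s2 WT clone 1 lies near the TAZ-KO clones.

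The cap-binding and helicase factors had a median log2 fold change of −0.055 over 10 members, with Eif4b the farthest from 0. Eif4b (chr15:102073773-102097173), a cofactor of the eIF4A helicase, had 652 and 643 CPM in TAZ-KO clones 1 and 2, against 1078, 922 and 995 CPM in WT clones 1, 2 and 3 (647 ± 6.42 and 998 ± 78.4, mean ± SD, n = 2 and 3 clones). The TAZ-KO clones agreed closely and all WT clones were higher (log2 fold change −0.62 ± 0.21, unadjusted p = 0.0252 and adjusted p = 0.253 in edgeR, adjusted p = 0.0552 in DESeq2, and edgeR adjusted p = 0.0345 without WT clone 1). The paralogous eIF4A helicases had fold changes of opposite sign. Eif4a2 had 171 and 179.7 CPM in TAZ-KO clones, against 215, 235 and 251 CPM in WT clones, and Eif4a1 had 163 and 167 CPM against 166, 136 and 121 CPM. Neither passed the test (edgeR adjusted p = 0.321 for Eif4a2, 0.0416 without WT clone 1, and 0.585 for Eif4a1).

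The scaffolds Eif4g1 and Eif4g2 and the cap-binding protein varied between clones rather than between groups, and the scaffold Eif4g3 varied little. Eif4g1, the main scaffold, had 702 and 1108 CPM in TAZ-KO clones 1 and 2, against 750.4, 859 and 898 CPM in WT clones 1, 2 and 3, so that the TAZ-KO clones lay on both sides of the WT range. Eif4g2, an eIF4G relative that lacks the eIF4E site, had 1393 and 1977 CPM against 1774, 1601 and 1838 CPM, and Eif4g3 had 214 and 229.6 CPM against 227, 222 and 236 CPM. The highest clone exceeded the lowest only 1.10-fold in Eif4g3. Eif4e, which binds the cap, had 110.0 and 124 CPM in TAZ-KO clones and 87.6, 140.4 and 141 CPM in WT clones, with both TAZ-KO clones inside the WT range. Eif4e2, a cap-binding relative of eIF4E, had a log2 fold change of −0.17, and the helicase Eif4a3, which belongs to the exon junction complex, one of −0.030. Eif4h, which resembles eIF4B in its role, spanned 551 to 567 CPM in TAZ-KO clones and 577 to 601 CPM in WT clones.

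Among the eIF4E inhibitors, Eif4ebp1 had the widest range of all members. It had 113 and 210.2 CPM in TAZ-KO clones 1 and 2, against 170.4, 379 and 384 CPM in WT clones 1, 2 and 3. TAZ-KO clone 2 was above WT clone 1, so the groups overlapped (log2 fold change −0.95 ± 0.45, edgeR adjusted p = 0.326, and 0.0105 without WT clone 1). Eif4ebp2, its paralogue, had 60.0 and 46.0 CPM in the TAZ-KO clones, against 58.9, 42.5 and 49.3 CPM in the WT clones, with overlap. Eif4ebp3 spanned 5.54 to 6.35 CPM in the TAZ-KO and 5.98 to 6.78 CPM in the WT clones, and 67.3% of its exons lie within another annotated gene on the same strand. Eif4enif1, the eIF4E transporter, spanned 126 to 129 CPM in TAZ-KO clones and 118 to 119 CPM in WT clones, a separation that was lost on total counts.

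eIF6, which keeps the large ribosomal subunit from joining too early, had the largest fold change of the family. Eif6 (chr2:155819832-155826925) had 96.7 and 105 CPM in TAZ-KO clones 1 and 2, against 126, 271 and 264 CPM in WT clones 1, 2 and 3. Both TAZ-KO clones were below every WT clone, but WT clone 1 lay far closer to them than to WT clones 2 and 3 (log2 fold change −1.13 ± 0.37, unadjusted p = 0.0209 and adjusted p = 0.237 in edgeR, and adjusted p = 0.00077 without WT clone 1). Eif5a, the hypusine-bearing factor that helps ribosomes through difficult peptide bonds, had 977 and 1014 CPM in TAZ-KO and 806, 1245 and 1467 CPM in WT clones, where WT clone 1 was the lowest clone. Eif5a2, its paralogue, had 6.21 and 10.1 CPM against 6.51, 13.0 and 13.5 CPM.

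Ratios of related factors, which cancel scaling between clones, were compared between clones only. The ratio of Eif4a2 to Eif4a1 was 1.05 and 1.08 in TAZ-KO clones 1 and 2, against 1.29, 1.72 and 2.07 in WT clones 1, 2 and 3, a log2 difference of −0.65. The ratio of Eif4ebp1 to Eif4e was 1.03 and 1.70 in the TAZ-KO clones, against 1.95, 2.70 and 2.73 in the WT clones, and that of Eif1a to Eif1ax was 0.628 and 0.637 against 0.680, 1.54 and 1.05. In these 3 ratios the TAZ-KO clones were the lowest of the 5, with WT clone 1 nearest to them. A ratio does not cancel differences between chromosomes. Eif4a2 lies on chromosome 16, where the median log2 fold change of all tested genes was −0.38, and relative to that median it had −0.034. Eif1a and Eif1ax may share reads. The other 4 ratios overlapped between the groups. With 10 ways to split 5 clones into 2 and 3, the smallest p an exact permutation test can give is 0.1, so no ratio was tested.

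**Figure D4:**
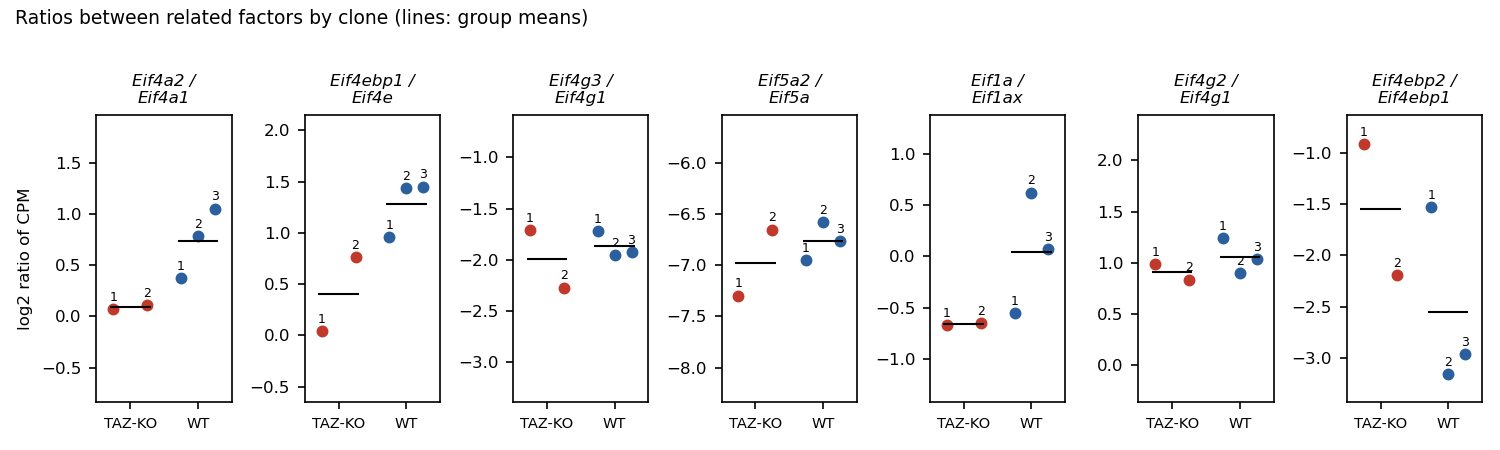
Log2 ratios of CPM between 7 pairs of related factors by clone (y axis, log2 ratio, each panel spanning the same number of log2 units; TAZ-KO left, WT right; points are clones with their numbers, lines group means). TAZ-KO clones lie below all WT clones for Eif4a2 to Eif4a1, Eif4ebp1 to Eif4e and Eif1a to Eif1ax.

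Regulators and partners of initiation, together with elongation and release factors, were read from a list of 52 symbols, of which 50 had a row. edgeR called 0 of them (0.0501% of all genes) and limma-voom 0. At an unadjusted p under 0.05, 7 were lower (14%, against 9.41% of all genes) and 1 was higher (2%, against 7.94%), and DESeq2 called 2 lower (4%, against 3.29%). Of the 7 lower genes, 4 came from the 9 elongation and release genes (44.4% of these 9). Without WT clone 1, edgeR called 18 lower (36%, against 19.7% of all genes) and 4 higher (8%, against 19.1%). Eef2k, the kinase that inhibits elongation factor eEF2, had 21.9 and 22.2 CPM in TAZ-KO clones 1 and 2, against 37.6, 50.5 and 47.0 CPM in WT clones 1, 2 and 3. The groups did not overlap (log2 fold change −1.03 ± 0.23, edgeR adjusted p = 0.151, and 0.00216 without WT clone 1). Eef2 itself had 3761 and 2868 CPM against 5413, 5161 and 5936 CPM (edgeR adjusted p = 0.262, and 0.0383 without WT clone 1). Dhps, which makes the first step of eIF5A hypusination, had 15.6 and 15.3 CPM against 19.7, 44.9 and 31.8 CPM, and the elongation factor subunits Eef1g and Eef1b2 had 103 and 93.8 against 119, 212 and 209.9 CPM and 459 and 457 against 621, 646 and 851 CPM. Tsc1, a brake on mTORC1, had 35.2 and 30.9 CPM against 44.5, 45.8 and 54.2 CPM. In each of these genes, named for an unadjusted p under 0.05, the TAZ-KO clones were the lowest of the 5. Over the 50 listed genes this order held for 11 (22%, against 18.6% of all genes tested). Both TAZ-KO clones were above every WT clone for 5 (10%, against 18.7%). edgeR adjusted p was 0.26 for Dhps, 0.256 for Eef1g, 0.274 for Eef1b2 and 0.272 for Tsc1, and without WT clone 1 0.00379, 0.00176, 0.0234 and 0.0296 in that order. Dhx9, an RNA helicase, was the 1 higher gene, with 513 and 483 CPM against 405, 190.1 and 222 CPM (edgeR adjusted p = 0.283, and 0.00158 without WT clone 1). Mtor had 113 and 111 CPM against 109.6, 83.8 and 82.4 CPM (edgeR adjusted p = 0.491, and 0.0465 without WT clone 1), and Pdcd4, an eIF4A inhibitor, had 14.8 and 20.01 CPM against 47.7, 21.2 and 18.2 CPM, with WT clone 1 alone high. Rps6 had 10.2 and 9.54 CPM against 10.3, 9.69 and 13.0 CPM.

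Of the 9 listed genes of eIF2 kinases and stress, 2 had WT clones 2 and 3 as the highest of the 5 clones, Atf4 and Ppp1r15a (22.2%, against 29.9% of all genes tested). The 4 kinases and Gcn1l1, Impact and Ppp1r15b did not. Atf4, the transcription factor made when eIF2 is phosphorylated, had 431 and 544 CPM in TAZ-KO clones 1 and 2, against 492, 934 and 917 CPM in WT clones 1, 2 and 3 (log2 fold change −0.68 ± 0.34, edgeR adjusted p = 0.346, and 0.00797 without WT clone 1). Ppp1r15a, which brings a phosphatase to eIF2, had 16.5 and 22.3 CPM against 34.7, 254 and 233 CPM. WT clones 2 and 3 were the highest in both genes. In Ppp1r15a they stood far above the other 3 clones (log2 fold change −3.16 ± 0.86, edgeR adjusted p = 0.211, and 0.000153 without WT clone 1). The eIF2 kinases Eif2ak1, Eif2ak2, Eif2ak3 and Eif2ak4 had log2 fold changes of 0.17, 0.10, 0.18 and 0.16. The part of this pathway in the levels of the initiation factors was not tested.

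**Figure D5:**
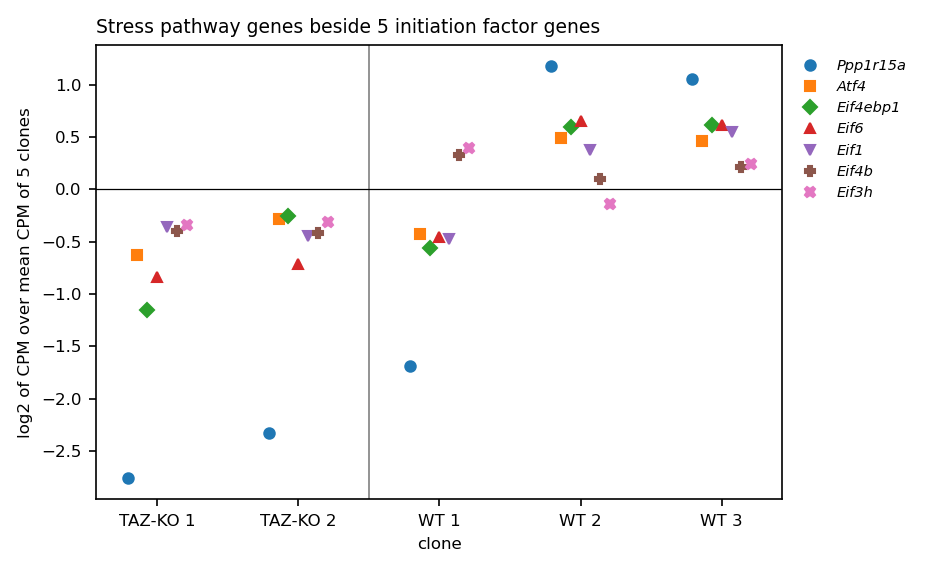
Log2 of CPM over the mean CPM of the 5 clones (y axis) for Ppp1r15a, Atf4 and 5 initiation factor genes in the 2 TAZ-KO clones (left) and the 3 WT clones (right), 1 point per gene and clone. Ppp1r15a and Atf4 are high in WT clones 2 and 3 and low in WT clone 1, as Eif6, Eif4ebp1 and Eif1 are, while Eif4b and Eif3h are high in WT clone 1. Only 2 of the 9 listed stress genes are shown, the 2 with WT clones 2 and 3 highest (22.2%, against 29.9% of all genes tested). Of the 46 members, 25 have this order (54.3%).

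Chromosomes differ in their median between clones of this line, which is tetraploid. The median log2 fold change of all tested genes was −0.38 on chromosome 16, where TAZ-KO clone 1 was low (−0.45 relative to the mean of the 5 clones), and −0.31 on chromosome 2, against −0.092 on chromosome 15. Relative to the median of their chromosome, Eif4a2 and Eif2b5 on chromosome 16 had log2 fold changes of −0.034 and −0.12, and Eif4g1 on the same chromosome one of 0.49. On chromosome 2, Eif6 had −0.82 relative to its chromosome against −1.13 before, Eif3m −0.38 against −0.69 and Eif2s2 −0.46 against −0.77. On chromosome 15, Eif3l had −0.67 and Eif4b −0.53. The median over all members relative to their chromosomes was −0.27. Copy number was not measured.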

How the data were processed

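RNA of 5 clones (2 TAZ-KO, 3 WT) was sequenced. Per the labels and the study's methods, the authors trimmed reads with cutadapt, aligned them with STAR to mouse GRCm38 (mm10) and deposited a table of raw counts per gene, which was used here. The labels name an mRNA-seq protocol and the methods a barcoded 3′ protocol. Strand handling and the treatment of reads with several matches are not given in the sources used here, so genes with near-identical copies are uncertain. The names of the TAZ-KO columns carry YAP, the name of the TAZ paralogue, and groups follow the labels. Wwtr1 was lower in both of these clones than in every WT clone. The table had been filtered before deposit, since every gene reached 6 counts in 1 library or more and 0 mitochondrial genes were listed. The deposited table also holds the authors' normalised counts, log2 values and their own fold changes and p-values, which were not used.

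Counts were tested with edgeR 4.0.16 in R 4.3.3 (quasi-likelihood F-test, TMM, filterByExpr by group, genotype only, Benjamini-Hochberg over 11975 genes, threshold 0.05). The methods also name DESeq2 and a surrogate-variable correction without its terms. Alternatives were DESeq2 1.42.0, limma-voom (limma 3.58.1), 1 surrogate variable (sva 3.50.0), a replicate block, 2 other scalings, 2 other filters and leaving out each clone. The SE of a fold change is its size divided by the square root of F. The study calls the clones of each group independent, though both TAZ-KO clones came from 1 Cas9 clone and carry the same guide. The p-values reflect clone-to-clone spread only. The code was tested on simulated data. Values in every clone are given for members with an unadjusted p under 0.05, those with an absolute log2 fold change of at least 0.5 and both TAZ-KO clones outside the WT range, the 10 widest ranges, the most abundant of each role and both genes of each ratio, and for regulators by a like rule. The most abundant of each role was picked by CPM per kilobase of exon, which can differ from the highest CPM. Eif5, Eif3a, Eif3b and the other members were added after their values were seen. Members and lists were chosen with earlier results of these data known.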

Additional observations from a re-analysis of the deposited data

How the results depend on the processing

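Over all genes tested, edgeR called 6 genes. It called 10 with no low-count filter and 0 with the replicate block, DESeq2 called 699, edgeR with 1 surrogate variable called 482, and leaving out 1 clone at a time gave 0 to 4598, the highest without WT clone 1. The initiation factors called numbered 0 in edgeR, 1 in DESeq2, 4 at an unadjusted p under 0.05, and 0 to 20 when leaving out 1 clone at a time, the 20 without WT clone 1. Of the regulators, DESeq2 called 2, the surrogate-variable fit 5, and leaving out 1 clone gave 0 to 22, the 22 without WT clone 1. The median log2 fold change of the initiation factors was −0.076 with 1 surrogate variable, whose values were −0.27 and −0.35 in TAZ-KO clones 1 and 2 and −0.47, 0.53 and 0.55 in WT clones 1, 2 and 3, so that it takes up the contrast among WT clones. It was −0.39 to −0.22 when leaving out 1 clone.

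TAZ-KO and WT share the replicate numbers 1 and 2, which only name clones. Deviations of same-numbered clones correlated at −0.12 over 11975 genes for both pairs. With the replicate block the median log2 fold change was −0.23, 0 genes were called, and the log2 fold change of Eif2ak2 was −0.014, of Eif2s1 0.061, of Eif2s3x 0.099 and of Eif4e 0.072. With 1 surrogate variable the direction turned for Eif2b3 (0.32), Eif2s1 (0.23), Eif4e (0.30), Eif4ebp2 (−0.080), Eif5a (0.18), Eif5a2 (0.14), Eif5 (0.012), Eif2s3x (0.19) and Eif4a3 (0.092). Leaving out 1 clone at a time gave −0.27 to 0.41 for Eif2ak2, −0.25 to 0.036 for Eif2s1, −0.26 to 0.032 for Eif4e, −0.11 to 0.26 for Eif4ebp2, −0.25 to 0.42 for Eif4g1, −0.32 to 0.21 for Eif4g2, −0.21 to 0.088 for Eif2s3x, −0.10 to 0.040 for Eif4a3 and −0.094 to 0.025 for Eif4g3, so that the direction turned in each. The cause was not tested. The other alternatives kept the direction of all 46 members and of the regulators named. With 2 against 3 clones, the number of clones and the spread between them both limit what can pass the test.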
